A study of Mus musculus with 167 samples.

Results

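Liver transcript levels were compared between 5 wild-type mice that had stopped drinking phenobarbital 4 weeks earlier and 5 wild-type controls of the same study day, day 119. These 10 animals were all those labelled wild type and day 119, out of 166 samples in the series (counting 1 pair of nearly identical arrays once), and each array held the liver RNA of 1 male C57BL/6 mouse. The recovered mice, hereafter PB mice, had been given phenobarbital in their drinking water until day 91, and the controls had received none. The dose of 0.05% (wt/vol) rests on the treatment text, since no animal's own label gives one. Both arms carried the unaltered mouse genes for the receptors CAR and PXR, the ages at the start were labelled 9 to 11 weeks, and the groups held animals 2026 to 2030 (PB) and 1026 to 1030 (control). For context, 3 further pairs of arms were used. They were wild-type mice on day 91 (5 PB and 4 control animals), CAR/PXR knockout mice on day 119 (4 PB and 5 control animals), and mice with the human CAR and PXR in place of the mouse receptors on day 119 (4 PB and 5 control animals). In the last arm the arrays of PB animals 6026 and 6030 were nearly identical and were averaged, which left 3 samples.

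Phenobarbital activates CAR (gene Nr1i3) and, more weakly in mice, PXR (gene Nr1i2), receptors that move to or act in the hepatocyte nucleus and switch on genes of drug metabolism. The cytochrome P450 Cyp2b10 is the usual transcript readout of CAR in mouse liver, and conjugating enzymes and efflux pumps follow it. A comparison after withdrawal asks which of these transcripts return to the level of undosed animals and which do not.

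Values are log2 expression, so that a difference of 1 is a doubling. A difference is PB minus control, the value after ± is the standard error (SE) of the fit unless SD is written, and a gene is called where limma's adjusted p, two-sided and corrected over 12623 genes, was under 0.05. Hepatocyte markers were high in every liver, and the mean of 10 of them lay between 13.71 and 13.81 in PB animals and between 13.73 and 13.86 in controls. The medians of the 10 arrays lay between 5.162 and 5.219. Nr1i3 (0.06 ± 0.11) and Nr1i2 (0.06 ± 0.12) were present in every one of the 10 livers and did not pass the test.

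After recovery 3 genes were higher in PB livers and no gene was lower, which is 0.0238% of the 12623 genes tested. They were Nebl, Cyp2b13 and Serpinb1a, and each had been higher on day 91 as well. At an unadjusted p under 0.05 there were 574 genes, 311 higher and 263 lower. The median difference over all genes was 0.0078.

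Nebl encodes nebulette, an actin-binding protein best known from the heart muscle Z-disc. Its log2 level was 5.54, 6.00, 5.76, 5.20 and 6.10 in PB animals 2026 to 2030, against 4.41, 5.08, 4.13, 4.30 and 4.76 in control animals 1026 to 1030. Every PB animal lay above every control, the closest being animal 2029 at 5.20 and control 1027 at 5.08. The difference was 1.19 ± 0.21 (adjusted p = 0.000748), a 2.27-fold higher level. It came from 1 of the 3 Nebl probe sets. The other two, both dim with mean levels of 3.14 and 2.73, differed by 0.07 and 0.02.

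Cyp2b13 is a P450 of the Cyp2b family that is normally much higher in female than in male mouse liver. PB animals had 6.16, 6.63, 5.38, 7.46 and 5.29, against 5.20, 5.20, 4.75, 5.11 and 5.00 in controls. The PB animals spread widely, with an SD of 0.90 against 0.19 in controls, and animals 2028 and 2030 lay only just above the highest control. The difference was 1.13 ± 0.20 (adjusted p = 0.000748). Without animal 2029, the highest, it was 0.81 and did not pass (adjusted p = 0.166). The fit pools the spread of all groups. Fitted on the 10 arrays alone, adjusted p in limma was 0.669 for Cyp2b13, 0.16 for Nebl and 0.0305 for Serpinb1a. That fit called 4 genes, all higher: Serpinb1a, Abcc4, Robo1 and Snhg11. The part of the pooling in these values was not tested.

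Serpinb1a encodes an intracellular inhibitor of neutrophil serine proteases. Its level was 9.06, 8.96, 9.30, 9.51 and 9.36 in PB animals, against 8.16, 8.03, 7.75, 7.20 and 8.21 in controls. The lowest PB animal, at 8.96, lay above the highest control, at 8.21. The difference was 1.37 ± 0.29 (adjusted p = 0.0271), a 2.58-fold higher level, and both of its probe sets agreed in sign, at 1.37 and 1.45. It did not pass without animal 2028, 2029, 2030, 1027, 1028 or 1029, where adjusted p lay between 0.0514 and 0.366 and the difference between 1.20 and 1.41. The labels carry an ID number, not explained there, that sets animals ending in 26 and 27 apart from the rest. With these sets as a block in limma on the 10 arrays alone, adjusted p was 0.0625 for Serpinb1a, against 0.0305 without the block. It was 0.204 (0.16 without) for Nebl and 0.664 (0.669 without) for Cyp2b13. The fit with the block called 2 genes, Abcc4 and Robo1, both higher.

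**Figure D1:**
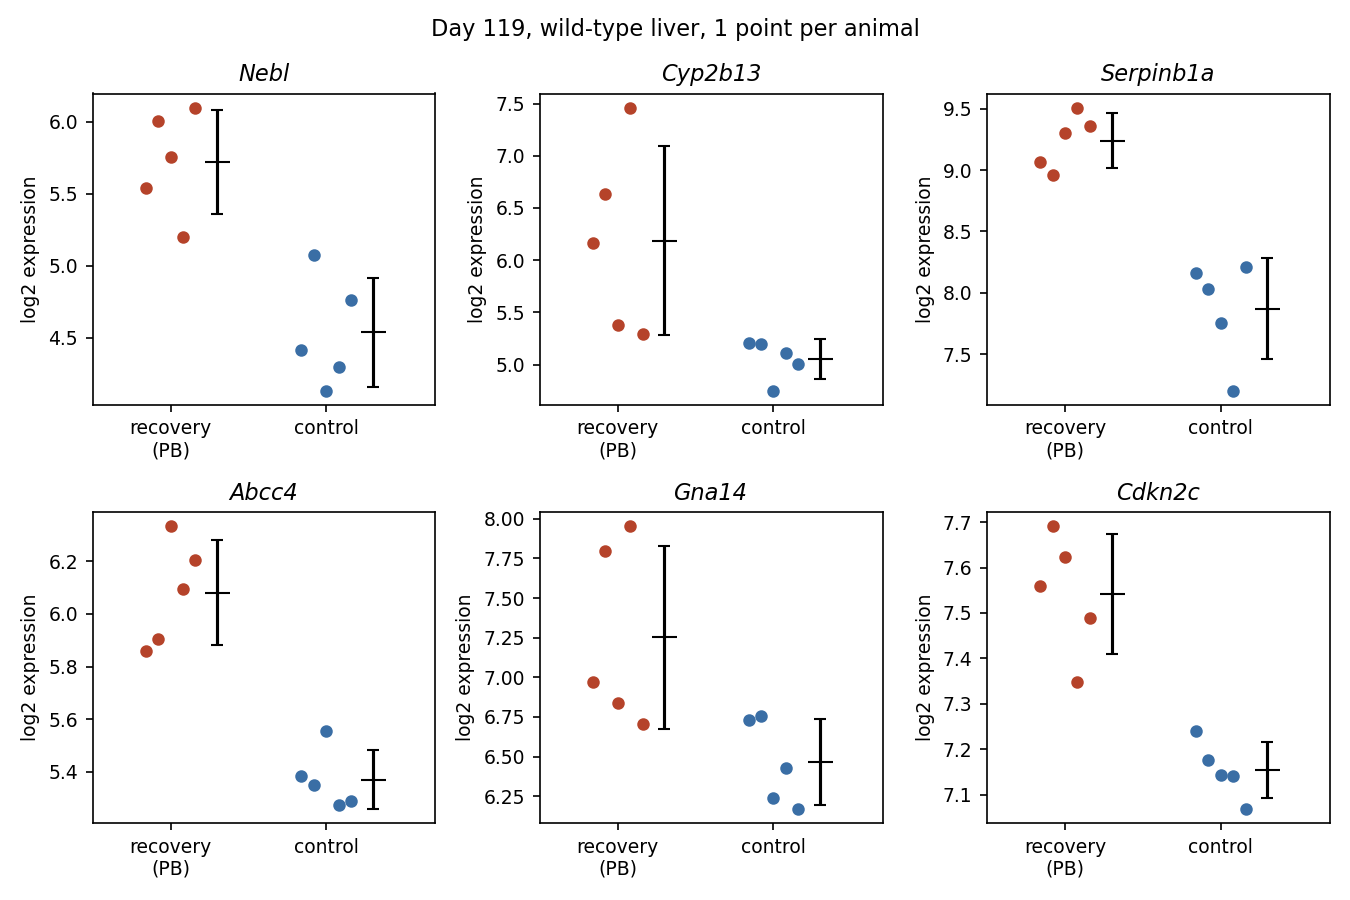
Log2 expression of 6 genes in wild-type liver on day 119, with 1 point per animal, PB animals in red and controls in blue, and black bars for the mean and SD of 5 animals. PB animals lie above every control for Nebl, Cyp2b13, Serpinb1a, Abcc4 and Cdkn2c, and for Gna14 the lowest PB animal, 2030, lies below the highest control; only the first 3 genes passed the test.

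The 3 genes had followed different courses under dosing, in separate animals on each day. Nebl already differed by 1.82 ± 0.23 on day 7 (adjusted p = 6.38e-10), reached 3.52 ± 0.21 at day 28 and stood at 3.06 ± 0.22 when dosing ended. On day 119 it kept 38.7% of the day 91 difference, and the loss passed the test (difference of differences -1.87, adjusted p = 4.99e-06). The Cyp2b13 difference was 0.87 ± 0.21 at day 14, then 3.25 ± 0.20 at day 28 and 4.61 ± 0.21 at day 91, and recovered livers kept 24.6% (loss -3.48, adjusted p = 4.59e-19). Controls on day 119 were dim, at 4.13 to 5.08 for Nebl and 4.75 to 5.20 for Cyp2b13, against array medians of 5.162 to 5.219. RMA compresses differences of dim probe sets, so both percentages kept are uncertain.

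Serpinb1a stood at 1.83 ± 0.31 on day 91 and kept 74.9% of that. PB animals averaged 9.39 ± 0.39 (SD, n = 5) on day 91 and 9.24 ± 0.22 (SD, n = 5) on day 119. The change of -0.46 between the days did not pass (adjusted p = 0.727). Controls themselves averaged 5.94 ± 0.32 (SD, n = 5) on day 1, 6.07 ± 0.40 (SD, n = 5) on day 28, 7.57 ± 0.38 (SD, n = 4) on day 91 and 7.87 ± 0.41 (SD, n = 5) on day 119, a course that was not tested.

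**Figure D2:**
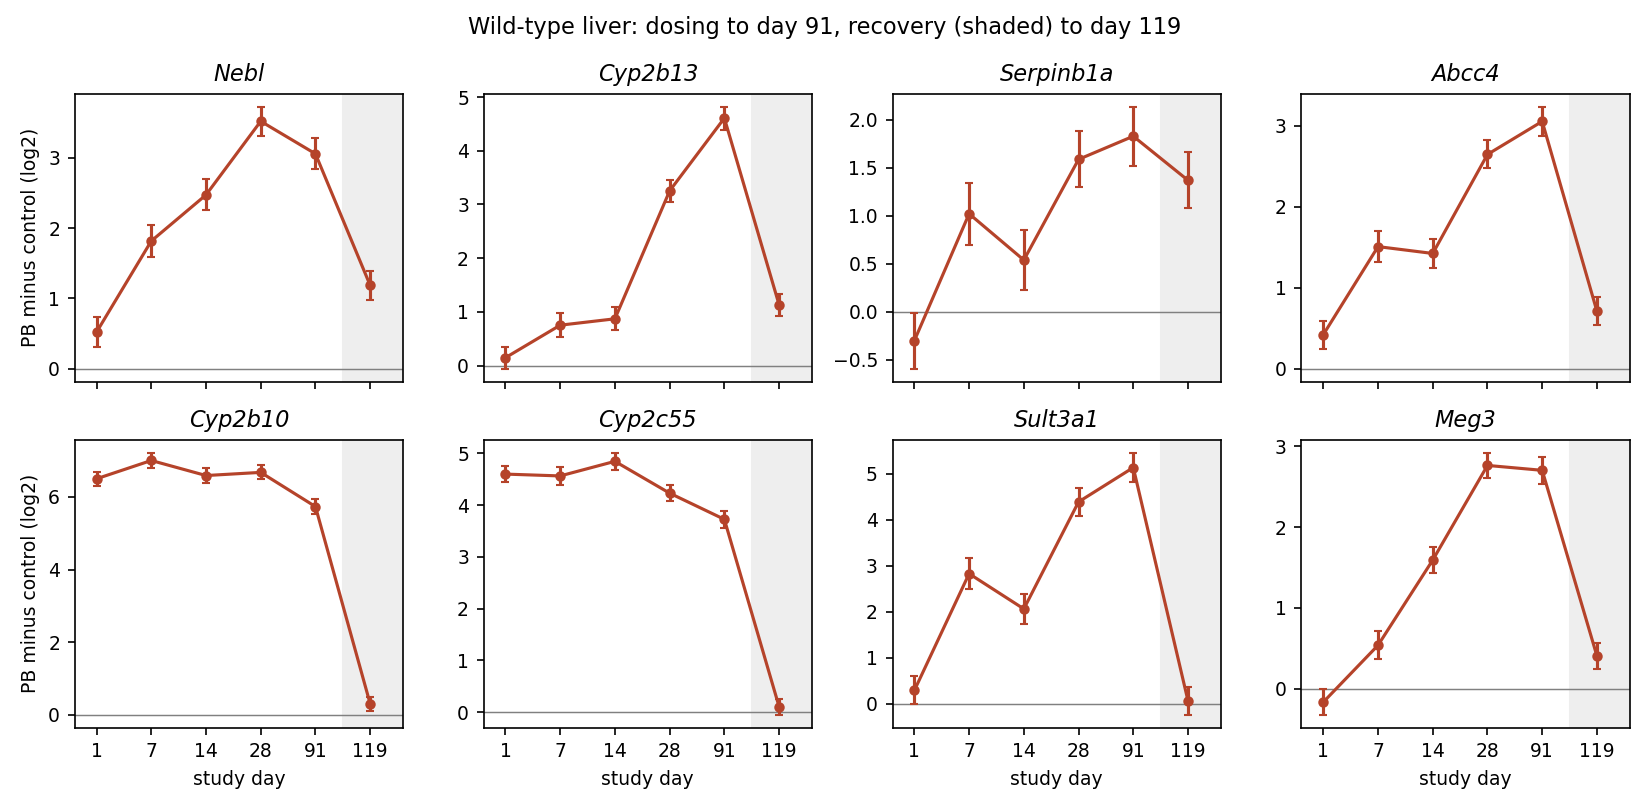
PB minus control difference (log2) by study day in wild-type liver for 8 genes, with bars for the SE of the fit and the recovery day shaded; days are evenly spaced and not to scale. Nebl, Cyp2b13 and Serpinb1a end at 1.19, 1.13 and 1.37 on day 119, whereas Cyp2b10, Cyp2c55 and Sult3a1 end at 0.30, 0.11 and 0.06.

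Cyp2b13 shares its cluster on chromosome 7 with Cyp2b9 and Cyp2b10, and near-identical members of the family can share array signal, so their separate values are uncertain. The stretch around the transcription start is shown for Cyp2b13, the only P450 called on day 119, and for Cyp2b10, the strongest CAR readout, which was not. Both are RefSeq promoters of GRCm38.p6, 250 bases before to 50 after the start, on the plus strand. Cyp2b13 is chr7:26061245-26061544 and Cyp2b10 is chr7:25897408-25897707. Capitals mark AGGTCA (or TGACCT on the other strand), the letters of a nuclear receptor half-site.
Cyp2b13: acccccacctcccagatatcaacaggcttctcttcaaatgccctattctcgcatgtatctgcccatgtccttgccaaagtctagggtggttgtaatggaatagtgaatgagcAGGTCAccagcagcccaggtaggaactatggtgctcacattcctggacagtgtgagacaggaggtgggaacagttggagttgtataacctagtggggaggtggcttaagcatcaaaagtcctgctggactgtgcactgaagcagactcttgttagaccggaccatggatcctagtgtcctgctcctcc
Cyp2b10: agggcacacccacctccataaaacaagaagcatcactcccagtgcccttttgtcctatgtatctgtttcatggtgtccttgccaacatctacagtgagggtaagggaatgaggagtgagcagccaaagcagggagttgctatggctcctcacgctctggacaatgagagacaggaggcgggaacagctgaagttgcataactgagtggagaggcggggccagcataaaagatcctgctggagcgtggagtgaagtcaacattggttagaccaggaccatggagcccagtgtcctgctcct
The letters AGGTCA occur once in the Cyp2b13 stretch, at position 113 from its 5′ end, and not in that of Cyp2b10. They also stand once at position 113 of the promoter of Cyp2b9, which was not called on day 119, and 16.3% of 32851 RefSeq promoters of the same length hold them on either strand. TATAAA (or TTTATA) is in neither, and in 13.6% of all promoters. The Cyp2b9 promoter, chr7:26173159-26173458, matched that of Cyp2b13 at 298 of 300 bases, with C48T and T104C from Cyp2b13 to Cyp2b9. Cyp2b10 matched Cyp2b13 at 220 of 289 aligned bases (76.1%). The phenobarbital-responsive enhancer known for mouse Cyp2b10 lies upstream of this window.

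The other Cyp2b genes on day 119 did not pass. Cyp2b10 was at 7.05, 7.15, 7.35, 7.61 and 7.50 in PB animals, against 7.16, 7.39, 6.65, 6.88 and 7.08 in controls. These groups overlapped. Its difference of 0.30 ± 0.19 (95% confidence interval -0.07 to 0.68) compares with 5.73 ± 0.20 on day 91, when PB animals averaged 12.75 ± 0.16 (SD, n = 5) and controls 7.01 ± 0.36 (SD, n = 4). Cyp2b9 was at 7.46, 7.67, 7.49, 8.71 and 7.29 in PB animals, against 7.22, 7.50, 5.72, 7.17 and 7.39 in controls, a difference of 0.72 ± 0.37 (adjusted p = 0.999). Animal 2029 was the highest of the 10 for Cyp2b9, Cyp2b10 and Cyp2b13, and control 1028 the lowest.

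On day 91 the wild-type mice had 269 called genes (2.13%), of which 183 were higher (1.45%) and 86 lower (0.681%). The day 91 and day 119 comparisons share no animals. Of the 183 genes, 112 had a positive and 71 a negative difference on day 119, with a median of 0.0261. Called again were Nebl, Cyp2b13 and Serpinb1a. In 12 of the 183, all PB animals lay above all controls, where 0.697% of all genes tested did so. The 12 included Abcc4, Cdkn2c, Meg3, Robo1, Snhg11 and Znf41-ps beside the 3 called genes.

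The loss itself was tested as the day 119 difference minus the day 91 difference, and 84 of 12623 genes passed (0.665%), 18 of them upward and 66 downward. Of the 183 genes higher on day 91, 65 had a difference that was smaller on day 119 by this test. Of the 86 lower genes, 38 had a positive and 48 a negative difference on day 119, with a median of -0.01, and 10 of them passed the test of the change, all upward. No gene of the 86 was called again. The 183 and the 86 genes were picked by their day 91 difference, which also enters the test of the change. A smaller difference on day 119 was therefore favoured in advance.

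The largest day 91 differences were those of P450s and conjugating enzymes, and most of them were near 0 on day 119. Cyp2c65, a P450 that CAR induces strongly in mice, was at 3.24, 3.16, 3.47, 3.49 and 3.40 in PB animals, against 3.34, 3.73, 3.06, 3.29 and 3.26 in controls, and the groups overlapped throughout. Its difference was 0.02 ± 0.16, against 5.83 ± 0.17 on day 91. Cyp2c55 was at 0.11 ± 0.16 (day 91, 3.72 ± 0.17) and the sulfotransferase Sult3a1 at 0.06 ± 0.30 (day 91, 5.13 ± 0.32). The glutathione transferase Gstm3 was at -0.04 ± 0.18 (day 91, 2.98 ± 0.19). For these 4 genes the loss passed with adjusted p between 3.66e-48 and 2.21e-18. On day 119 both groups lay below the array medians of 5.162 to 5.219 for Cyp2c65 and for Sult3a1 (2.87 to 3.22). RMA compresses differences of such dim probe sets, so a small remaining difference in Cyp2c65 or Sult3a1 may not show. Both groups lay above the medians for Cyp2c55 (8.07 to 8.63) and Gstm3 (9.25 to 9.86).

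Among 39 genes at least 1 log2 higher on day 91, 29 had lost difference by the test, and 4 kept at least 50% of it on day 119. These 39 were also picked by the day 91 difference that enters the test. The 4 were Serpinb1a, Robo1, a receptor for Slit guidance proteins, Gna14, a Gq-class G protein subunit, and Tafa2, a small secreted chemokine-like protein. Robo1 was at 7.21, 7.09, 7.40, 7.38 and 7.24 in PB animals, against 6.47, 6.11, 6.64, 6.57 and 6.52 in controls. Its groups were apart, with a difference of 0.80 ± 0.24 that did not pass (adjusted p = 0.621). Tafa2 was at 5.54, 3.56, 5.23, 5.20 and 5.12 in PB animals, against 3.46, 3.46, 3.99, 3.71 and 4.63 in controls. PB animal 2027 lay among the controls, and the difference of 1.08 ± 0.31 did not pass (adjusted p = 0.463). Robo1, Tafa2 and Snhg11 were singled out after their values were seen.

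**Figure D3:**
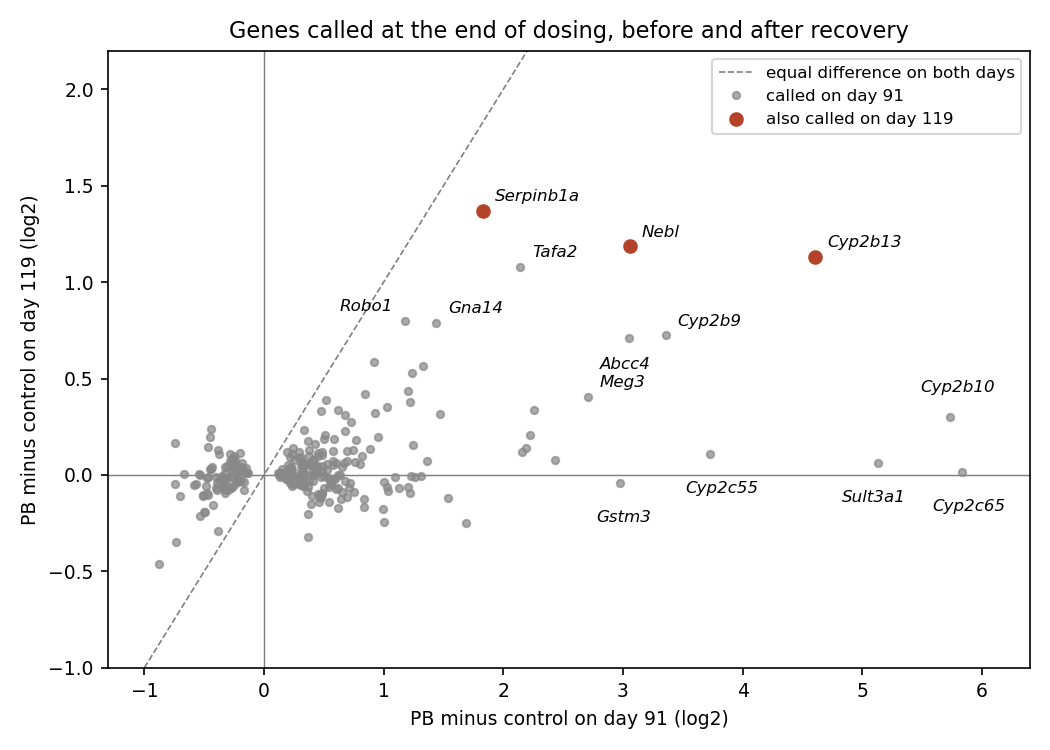
PB minus control on day 119 against that on day 91 (both log2) for the 269 genes called on day 91 in wild-type liver, with the 3 genes called on both days in red and a dashed line where both differences would be equal. Most genes lie along 0 on the day 119 axis, and Cyp2b10, Cyp2c65 and Sult3a1, beyond 5 on day 91, lie at 0.30, 0.02 and 0.06.

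The genes next in line on day 119 were close to the threshold. Abcc4 encodes MRP4, an efflux pump of the sinusoidal membrane. It was at 5.86, 5.91, 6.33, 6.10 and 6.21 in PB animals, against 5.38, 5.35, 5.55, 5.27 and 5.29 in controls, with no overlap. Its difference was 0.71 ± 0.17 (adjusted p = 0.138), which is 23.2% of that on day 91, and it passed at 0.71 in the fit on the 10 arrays alone. Gna14 was at 6.97, 7.80, 6.84, 7.95 and 6.71 in PB animals, against 6.73, 6.76, 6.24, 6.43 and 6.17 in controls, with a difference of 0.79 ± 0.18 (adjusted p = 0.0894). PB animals 2027 and 2029 stood above the other three, of which animal 2030 lay below the highest control. All 3 Gna14 probe sets had differences between 0.75 and 0.85, and 1 of them passed where each of 34958 probe sets was tested on its own. In that test 5 probe sets were higher and 0 lower, of Nebl, Cyp2b13, Gna14 and, with 2 probe sets, Serpinb1a.

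Cdkn2c encodes the cell cycle inhibitor p18, which blocks the cyclin D kinases. It was at 7.56, 7.69, 7.62, 7.35 and 7.49 in PB animals, against 7.24, 7.18, 7.14, 7.14 and 7.07 in controls, and the groups were apart. The difference was 0.39 ± 0.10 (adjusted p = 0.138), against 0.52 ± 0.10 on day 91. The other upward genes with the smallest p were Synj1 (0.21 ± 0.06, adjusted p = 0.461), a phosphoinositide phosphatase, and Gse1 (0.55 ± 0.15, adjusted p = 0.463).

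No downward gene passed, and the nearest was Zfp592, a zinc finger protein. It was at 6.81, 7.05, 7.17, 7.02 and 6.96 in PB animals, against 7.25, 7.40, 7.24, 7.26 and 7.25 in controls, a difference of -0.28 ± 0.06 (adjusted p = 0.0625). The groups did not overlap. Behind it were Unc93b1, which carries nucleic acid-sensing Toll-like receptors to the endosome (-0.26 ± 0.07), Cox4i2, a cytochrome oxidase subunit (-0.31 ± 0.09), Deup1 (-0.30 ± 0.08) and Lrmda (-0.28 ± 0.08). Over all genes tested, groups that did not overlap were found for 138 (1.09%), 88 with PB animals above and 50 with PB animals below (0.396%).

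Gene lists were described by counts, since their members were chosen with results known. For every list below, the shares called over all 12623 genes tested were 2.13% on day 91 and 0.0238% on day 119. On day 119, 574 of the 12623 had an unadjusted p under 0.05 in limma. Of 37 P450 and other phase I genes tested, 1 was called on day 119, Cyp2b13, against 16 on day 91. Their median difference was -0.01, against 0.21 on day 91. Cyp2a12, a steroid-hydroxylating P450, differed by -0.14 with all PB animals below all controls and did not pass (adjusted p = 0.973). Cyp2c29, Cyp2c37, Cyp2c50 and Cyp2c54, constitutive P450s that differed by 0.55 to 1.23 on day 91, lay between -0.09 and -0.01 on day 119. Cyp3a11, the main PXR readout, differed by -0.04 ± 0.04. It was not called on day 91 either, when it averaged 14.38 in PB animals and 14.30 in controls. These levels are near the highest value of the series, 15.07, where differences can be compressed. Its day 119 value therefore shows no return from a called difference.

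Of 36 conjugating enzymes, 21 were called on day 91, when 2.13% of all genes were, and 0 on day 119. On day 119 limma gave 2 of the 36 at an unadjusted p under 0.05, against 574 of all 12623 genes. The median of the 36 was -0.01, against 0.36 on day 91. The estrogen sulfotransferase Sult1e1 was at 4.17, 3.60, 3.64, 4.00 and 4.03 in PB animals, against 3.29, 3.67, 3.56, 3.60 and 3.62 in controls, a difference of 0.34 ± 0.22. The glutathione transferase Gstm5 was at 0.23 (adjusted p = 0.973). Of 17 transporters 0 passed in limma, and Abcc4 was the only one under an unadjusted p of 0.05.

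In the imprinted Dlk1-Dio3 domain on chromosome 12, whose maternal non-coding RNAs respond to phenobarbital in mouse liver, 3 genes were tested and 0 passed in limma, with 1 at an unadjusted p under 0.05. That gene was Meg3, at 7.23, 7.23, 7.37, 7.26 and 7.75 in PB animals, against 6.67, 7.07, 6.99, 7.16 and 6.92 in controls. The groups were apart by a narrow margin, with a difference of 0.41 ± 0.16 (adjusted p = 0.973) against 2.70 ± 0.17 on day 91. The 11 Meg3 probe sets differed by -0.09 to 0.41. Rian, of the same domain, differed by 0.12 ± 0.22, against 2.15 ± 0.24 on day 91.

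The female-biased list held Cyp2b13 as its 1 called gene of 13 tested, against 6 called on day 91, when 2.13% of all genes were. Its median was 0.18, against 1.08 on day 91. Hao2, a peroxisomal hydroxyacid oxidase of that list, was at -0.25 ± 0.19 after 1.69 on day 91. Of 14 male-biased genes, 0 passed on day 119 in limma and 0 had an unadjusted p under 0.05. Among them Hsd3b5, a steroid dehydrogenase that had been lower on day 91 (-0.75 ± 0.18), was at -0.05 ± 0.17. The change in Hsd3b5 between the days did not pass. Its controls averaged 12.00 on day 91 and 11.65 on day 119, and its PB animals 11.25 and 11.60.

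**Figure D4:**
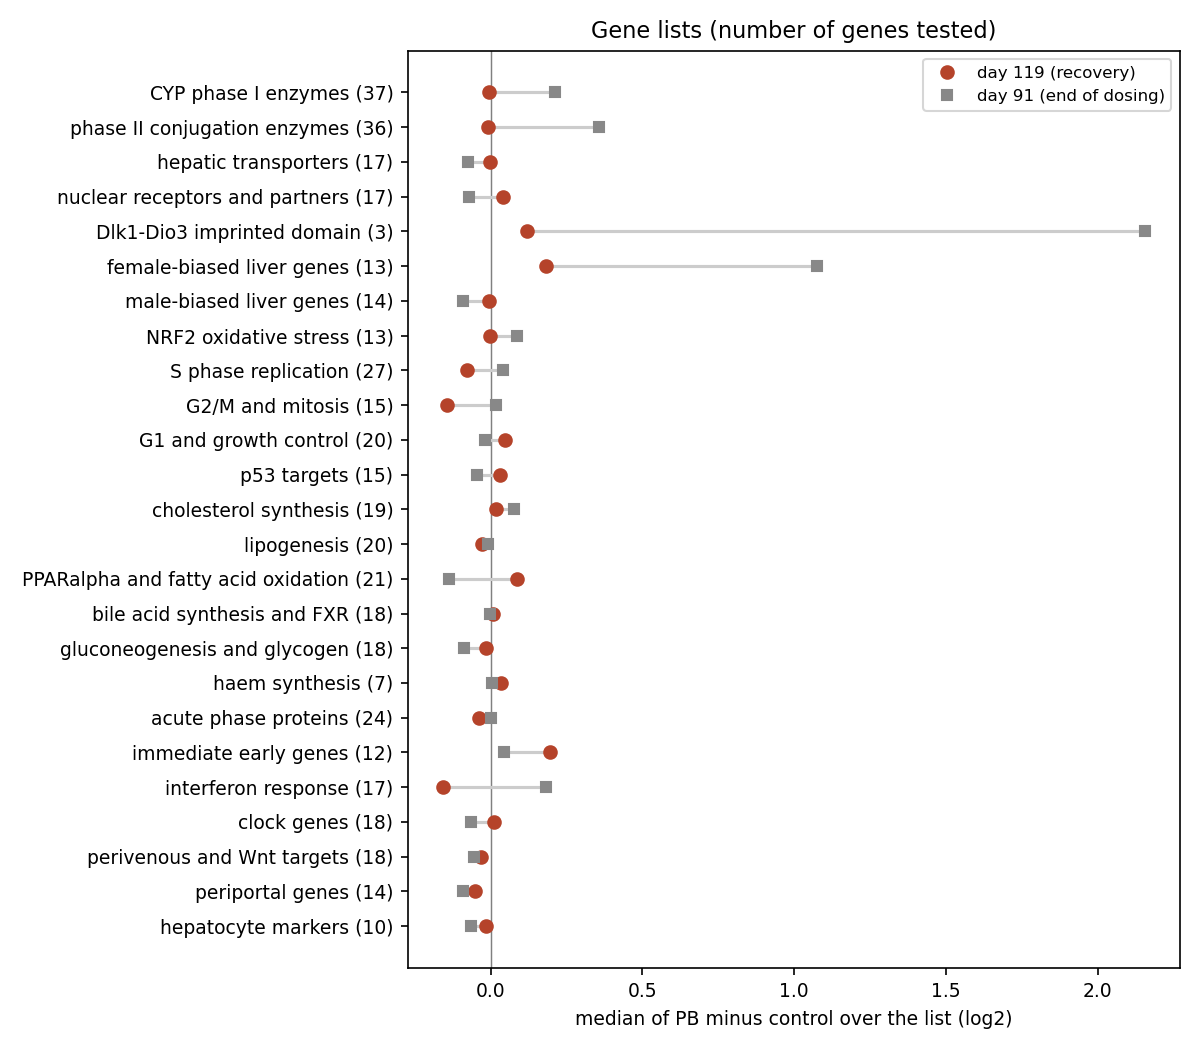
Median of the PB minus control difference (log2) over 25 gene lists in wild-type liver, red for day 119 and grey squares for day 91, with the number of genes tested in brackets. On day 119 the medians of these lists lie between -0.16 and 0.20, whereas on day 91 the Dlk1-Dio3 list, with 3 genes, lies at 2.15 and the conjugating enzymes at 0.36.

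No cell cycle gene passed. Of 27 S phase genes 4 had a positive difference, their median was -0.08, and limma gave 3 at an unadjusted p under 0.05, all with lower PB levels. Mcm2, a subunit of the replication helicase, was at 6.66, 6.57, 6.66, 6.57 and 6.84 in PB animals, against 6.92, 7.08, 6.86, 7.11 and 7.07 in controls. Its groups only just failed to overlap, with a difference of -0.35 (adjusted p = 0.762). Mcm4 (-0.34) and Mcm6 (-0.42) also had every PB animal below every control, and neither passed. That makes 3 of the 27 S phase genes, where 0.396% of all genes tested were apart in this direction. Ccnd1, cyclin D1, was at 7.49, 7.66, 7.32, 7.54 and 7.54 in PB animals, against 7.92, 8.12, 7.90, 7.83 and 7.86 in controls, also without overlap, and its difference of -0.41 ± 0.18 did not pass (adjusted p = 0.999). It was the lowest of 20 G1 and growth control genes, of which 15 had a positive difference, with a median of 0.05 and limma giving 0 calls and 4 at an unadjusted p under 0.05. The highest was Gadd45a, a growth arrest gene, at 0.74 ± 0.32 (adjusted p = 0.999). Of 15 G2/M genes 1 had a positive difference, with a median of -0.14, and 0 had an unadjusted p under 0.05. Mki67, the proliferation marker, was at -0.15 ± 0.20. Gadd45b, which CAR induces, was at -0.18 ± 0.15, against 0.99 ± 0.16 on day 91.

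The immediate early genes, which respond to handling and growth signals within minutes, had the highest median of the lists drawn, 0.20. Of 12 tested limma called 0, with 4 at an unadjusted p under 0.05, against 574 of all 12623 genes. Egr1 was at 8.79, 8.80, 7.18, 7.00 and 8.80 in PB animals, against 7.19, 7.17, 5.85, 6.89 and 5.93 in controls. Animals 2026, 2027 and 2030 were the highest, animals 2028 and 2029 lay within the range of the controls, and the difference of 1.51 ± 0.49 did not pass (adjusted p = 0.762). Zfp36 (0.61), Dusp1 (0.64) and Junb (0.36) were the other three. The interferon list had the lowest median, -0.16, with 0 of 17 genes called by limma, 1 at an unadjusted p under 0.05, and all 17 differences negative. Its mean level overlapped, at 7.19 to 7.50 in PB animals and 7.33 to 7.77 in controls. Neither of these medians carries a test.

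Metabolic lists had medians near 0: 0.02 over 19 cholesterol synthesis genes, -0.03 over 20 lipogenic genes, 0.01 over 18 bile acid genes and 0.09 over 21 PPARalpha and fatty acid oxidation genes. Cyp7a1, whose enzyme sets the pace of bile acid synthesis, was at 10.91, 9.52, 10.40, 9.18 and 10.98 in PB animals, against 8.98, 8.94, 9.47, 9.81 and 10.21 in controls, and the groups overlapped (0.72 ± 0.39, adjusted p = 0.999). Alas1, the first enzyme of haem synthesis, differed by -0.01 ± 0.55, with a wide spread in both groups. Bcl6, a repressor in growth hormone signalling and singled out after its values were seen, was at 10.09, 9.77, 8.15, 8.54 and 9.79 in PB animals, against 6.82, 7.67, 9.80, 6.74 and 7.55 in controls. Control 1028 lay among the highest PB animals, and the difference of 1.55 ± 0.75 did not pass.

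Genes of other cell types were read in the same livers. The 10 pancreas acinar markers tested, digestive enzymes such as Cpa1 and Prss2, had a mean level of 7.34, 9.18, 5.53, 5.43 and 5.53 in PB animals 2026 to 2030, against 11.45, 6.33, 10.48, 5.89 and 5.41 in controls 1026 to 1030. Animals 1026, 1028 and 2027 were the highest, and animal 2026 was next, at 7.34. None of the 10 was called by limma, 0 had an unadjusted p under 0.05, and their median difference was -1.43. In bulk tissue, fewer cells of a type and less RNA per cell cannot be told apart. The Kupffer cell mean ranged from 7.62 to 8.23 in PB animals and from 7.58 to 8.57 in controls. The T and NK cell mean was taken over the 5 genes tested, Cd3d, Cd3e, Cd8a, Cd4 and Ccl5. The NK cell genes Nkg7, Gzma and Gzmb were too dim to be tested. The mean ranged from 5.38 to 5.57 in PB animals and from 5.58 to 5.86 in controls. Every PB animal lay below every control, but narrowly, the closest being at 5.568 and 5.578. Limma called 0 of the 5, with 2 at an unadjusted p under 0.05: the T cell chemokine Ccl5 (-0.55) and the coreceptor Cd8a (-0.20). The highest of the 5, Cd4, differed by 0.00. The part of this list in the interferon list's negative differences was not tested.

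Without animals 1026, 1028 and 2027, a choice made after seeing these values, 4 PB animals and 3 controls remained. Animal 2026, with an acinar mean of 7.34, was among those kept. No gene was then called by limma, with 516 at an unadjusted p under 0.05 and a smallest adjusted p of 0.359. The differences were 0.94 for Nebl, 0.97 for Cyp2b13 and 1.50 for Serpinb1a. The groups of these 3 genes did not overlap before, so leaving animals out could not make them overlap. For Nebl the lowest PB value was 5.20 and the highest control value 5.08, and for Serpinb1a these were 9.06 and 8.21. The part of the acinar signal in the 3 calls was not tested beyond these values.

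**Figure D5:**
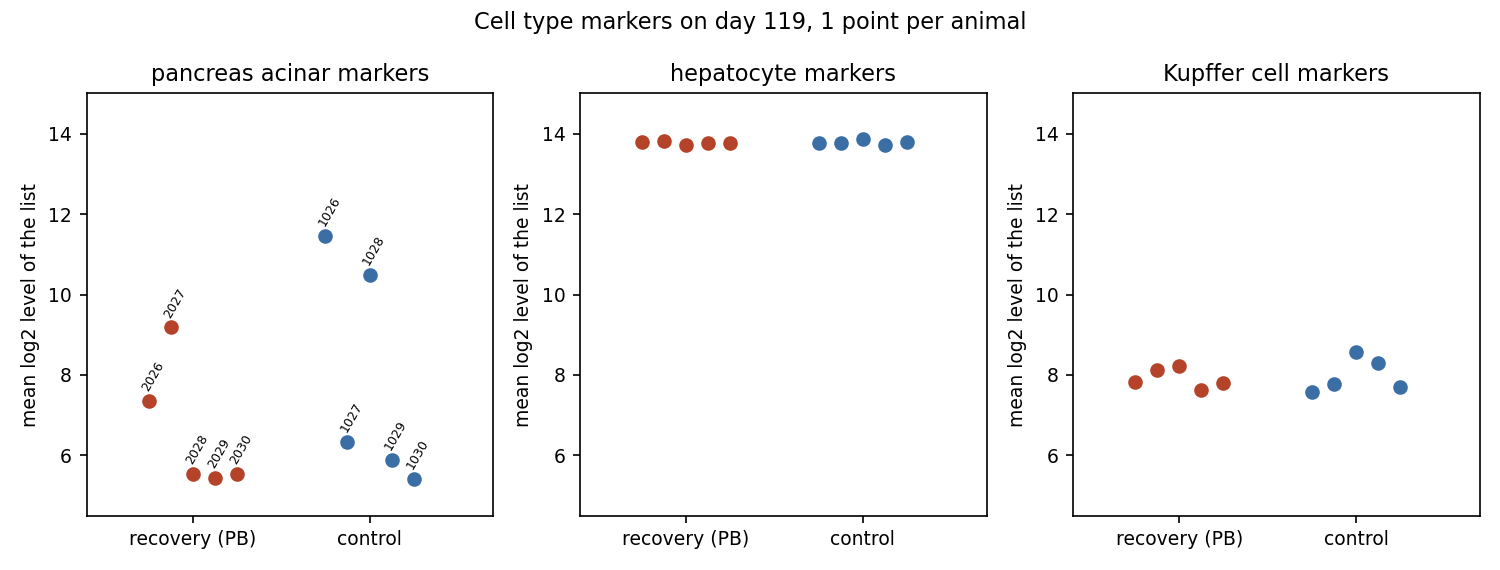
Mean log2 level of 3 marker lists on day 119, with 1 point per animal, PB animals in red and controls in blue, and animal numbers beside the acinar values. The acinar mean spans 5.43 to 9.18 in PB animals and 5.41 to 11.45 in controls, and the hepatocyte mean stays between 13.71 and 13.86.

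The recovery difference of wild-type mice was set against that of knockout mice, which lack both receptors, and of humanized mice. None of the 3 called genes differed by genotype at an adjusted p under 0.05. Nebl was 1.19 in wild type, 0.21 ± 0.22 in knockout mice and 0.36 ± 0.24 in humanized mice, and wild type minus knockout was 0.97 ± 0.30 (95% interval 0.37 to 1.57, adjusted p = 0.35). Cyp2b13 differed by -0.02 ± 0.21 in knockout and 0.14 ± 0.23 in humanized mice, and wild type minus knockout was 1.15 ± 0.29 (95% interval 0.57 to 1.74, adjusted p = 0.192). Serpinb1a differed by -0.23 ± 0.31 and 0.48 ± 0.34, and wild type minus knockout was 1.60 ± 0.42 (95% interval 0.76 to 2.44, adjusted p = 0.192). Wild type minus humanized was 0.83 ± 0.32 for Nebl, 1.00 ± 0.31 for Cyp2b13 and 0.89 ± 0.45 for Serpinb1a, with adjusted p between 0.59 and 0.997. In humanized livers Serpinb1a was high in both arms, at 10.02 ± 0.30 (SD, n = 3) in PB mice and 9.53 ± 0.29 (SD, n = 5) in controls. Nebl in knockout livers averaged 5.21 ± 0.38 (SD, n = 4) in PB mice and 4.99 ± 0.49 (SD, n = 5) in controls. The highest knockout control, at 5.85, lay within the range of the wild-type PB animals.

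Over all genes, 4 differed between the wild-type and knockout recovery effects (0.0317%), and 0 (0%) between wild-type and humanized effects in limma, with 583 at an unadjusted p under 0.05. The recovery comparison itself called 14 genes in knockout mice (0.111%) and 27 in humanized mice (0.214%). Cxcl1, a neutrophil chemokine, was at 7.88, 8.02, 8.29, 8.53 and 8.53 in wild-type PB animals, against 7.79, 7.82, 7.81, 7.86 and 7.93 in wild-type controls, a difference of 0.41 ± 0.34. In knockout mice it averaged 10.41 ± 1.61 (SD, n = 4) in the PB arm and 7.43 ± 0.44 (SD, n = 5) in controls, so that wild type minus knockout was -2.57 (adjusted p = 0.00954). For the other three genes wild type minus knockout was positive, at 0.39 for Mycbp, 1.26 for Znf41-ps and 1.86 for Zfp979. Their wild-type effects were 0.15, 0.59 and 0.49, none of which passed, and their knockout effects were of the opposite sign and larger in size, at -0.24, -0.68 and -1.37. In knockout mice Mycbp (adjusted p = 0.0423) and Zfp979 (adjusted p = 0.0147) fell, and Znf41-ps did not pass. Cdkn2c was called in humanized mice on day 119 (0.49 ± 0.11, adjusted p = 0.0252), where wild-type mice had 0.39, and the genotype difference of -0.10 ± 0.15 did not pass.

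As a second test of single values, 65 named genes were compared by a two-sided exact permutation test of the difference in means. With 5 animals against 5 there are 252 splits, and the smallest p they can give is 0.00794. It was reached by 13 genes, among them Nebl, Cyp2b13, Serpinb1a, Abcc4, Cdkn2c, Meg3, Zfp592 and Ccnd1. Gna14 had an exact p of 0.0238 and Cyp2b10 one of 0.119. These genes were named with results known, and their groups not overlapping is what gives the smallest p.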

How the data were processed

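Liver RNA was measured on Affymetrix mouse arrays, 1 array per animal, and 10 arrays of 166 samples were compared here. The deposited values are log2 expression per probe set, made with RMA per the submitters' processing notes, and its version is not given in the sources used here. RMA makes array distributions alike and compresses differences of dim probe sets, and differences of very bright probe sets can be compressed too. Groups came from the labels. The labels' treatment text also names lower doses and a start at 8 weeks. Probe sets with 1 gene symbol in the platform annotation (34958 of 45101) were kept, and the one with the highest mean over all arrays stood for a gene. A gene was tested if at least 3 arrays lay above their own median, which kept 12623 of 18194.

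Each difference was fitted in R 4.3.3 with limma 3.58.1 (lmFit, eBayes, two-sided) in 1 model of 36 group means over 166 samples, with 130 residual degrees of freedom, adjusted by Benjamini-Hochberg within each contrast. Pooling assumes that groups vary alike. Exact tests were made with Python 3.11, and array numbers limit the precision. Knockout arrays 4019 and 4024 were nearly identical under different day labels and were kept. The fit was tested on simulated data drawn with the same spread per gene in every group, so the pooling assumption was not tested there. Replicates are separate animals.

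Named genes were the called genes and the 5 with the smallest p in each direction, the 15 largest rises and 10 largest falls of day 91, up to 4 called members of a list, the 8 largest differences between days or genotypes, and 30 genes named in any case. The genes, the 42 lists and the tests were chosen with earlier results of these data known. Promoters are RefSeq sequences, aligned globally with Biopython.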

Additional observations from a re-analysis of the deposited data

Results flagged for a closer look

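Among the named genes and lists, 216 groups of 5 animals were examined for a single animal far from the others (gap over range above 0.71), and 16 were found. Chance flags about 1 in 20 groups. In PB animals, Cyp2b9 was 8.71 in animal 2029 (others 7.29 to 7.67), Glul 12.14 in animal 2030 (12.28 to 12.33) and Meg3 7.75 in animal 2030 (7.23 to 7.37). Animal 2029 also had the highest mean of the female-biased list, 6.33 (others 5.98 to 6.04), and animal 2027 that of the male-biased list, 10.66 (10.21 to 10.28). In controls, animal 1027 was highest for Kap at 6.72, Prom1 at 6.67, Zfp592 at 7.40 and the immediate early list at 6.92. Control 1028 was lowest for Cyp2b9 at 5.72 and Rian at 3.57 and highest for the iron list at 9.38. Control 1026 was lowest for Ackr3 at 4.07 and highest for T and NK cell markers at 5.86. Control 1029 was lowest for p53 targets at 7.58 and highest for neutrophil and monocyte markers at 5.36.

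Of the named genes, 4 had a recovery effect that differed between wild-type and knockout mice by limma: Cxcl1 at -2.57, Mycbp at 0.39, Zfp979 at 1.86 and Znf41-ps at 1.26 (wild type minus knockout, adjusted p between 0.00954 and 0.0394). The wild-type effect was smaller on day 119 than on day 91 for Cyp2c65 (-5.82), Cyp2b10 (-5.43), Sult3a1 (-5.07), Cyp2c55 (-3.62), Cyp2b13 (-3.48), Gstm3 (-3.02), Cyp2b9 (-2.63), Gm10419 (-2.35) and Nebl (-1.87). It was more positive on day 119 for Trmt61b (0.70), Sox6os (0.68), Zfp672 (0.65), Itpr2 (0.53), Mapk8ip3 (0.53), Ccl25 (0.51), Ccdc85b (0.50) and Klhl17 (0.50), with adjusted p between 0.013 and 0.0421. Of these, Itpr2, Sox6os and Zfp672 had been called lower on day 91, and none was called on day 119.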

How the results depend on the processing

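Of the single-gene values recomputed, 3112 kept their direction and side of the threshold, 175 no longer passed, 25 newly passed and 0 changed sign as called values. The 3 wild-type day 119 calls became 5 with the mean of all probe sets of a gene and 7 (6 higher, 1 lower) with array weights. They became 0 in animals 1028 to 1030 and 2028 to 2030 alone, and 0 without animals 1026, 1028 and 2027, a choice made after seeing the data. Leaving out 1 animal gave 1 to 4 calls, the lowest without animal 2029. The day 91 count of 269 became 522 (278 higher, 244 lower) with array weights and 162 to 294 leaving out 1 animal, the lowest without control 1022. The 84 changes between the days became 194 (67 up, 127 down) with array weights and 55 to 101 leaving out 1 animal, the lowest again without control 1022.

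The 4 differences from knockout mice became 20 with array weights, 2 with no filter on dim genes, with the stricter filter or on the compared arrays alone, and 1 with the mean of probe sets. Leaving out 1 animal gave 0 (without knockout PB animal 4028) to 17 (without 4030). The 0 differences from humanized mice became 25 (17 up, 8 down) with array weights and 1 with each array kept as its own sample, and stayed 0 leaving out 1 animal. The 1 list gene called became 3 with array weights and 0 without the 3 animals above or in animals 1028 to 1030 and 2028 to 2030 alone, and 0 to 1 leaving out 1 animal. The 13 named genes past the exact test, with p adjusted over the 65 named genes, became 0 to 11 with 1 animal left out. The count was 11 without PB animal 2026, 2029 or 2030, and 0 without PB animal 2027 or 2028 or any 1 control. Genes that share the smallest exact p pass or fail together after adjustment. A count of 0 therefore does not mean that the groups of each gene came to overlap.

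Of 24 alternatives, Nebl passed in 19, Cyp2b13 in 18 and Serpinb1a in 14. The description field puts animals ending in 26 and 27 apart from those ending in 28 to 30 by an ID number that the labels do not explain. With these sets as a block on the 10 arrays, adjusted p was 0.204 for Nebl, 0.664 for Cyp2b13 and 0.0625 for Serpinb1a, and the sets differed in 0 genes by limma (smallest adjusted p = 0.357). Within animals 26 and 27 the differences were 1.03, 1.19 and 0.92, and within 28 to 30 they were 1.29, 1.09 and 1.67. The cause of these changes was not tested. No paired analysis was possible because the groups share no animal numbers.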
